A study of Mus musculus with 10 samples.

Results

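The Wnt pathway genes described here are 40 genes: all 19 Wnt ligands, 12 receptors (the 10 Frizzled genes and the co-receptors Lrp5 and Lrp6) and 9 intracellular effectors. They were chosen by name and by their known place in the pathway from 21938 protein-coding genes of the GENCODE M21 annotation of mm10. No measured value was a criterion, but earlier results of these data were known when the list was made. All 40 symbols were found. Chromatin was measured in F123, a mouse ES cell line whose parents were Mus musculus castaneus and S129/SvJae. The cells were grown with LIF and knockout serum replacement on irradiated CF1 mouse embryonic fibroblasts, and were passaged once on gelatin without feeders before harvest. The series held 10 samples in 5 kinds of 2, with no treatment and a single genotype. Used here were H3K4me3 ChIP-seq, from 2 samples of fixed cells, and ATAC-seq, from 2 samples. The PLAC-seq and ChIP input samples were not analysed here.

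Each assay was given as 1 peak list that stood for its 2 samples, 33487 peaks for H3K4me3 and 179109 for ATAC-seq. No read counts came with the peaks, so the depth is unknown, the spread between samples could not be computed, and no test was run. Differences are given as counts and medians beside the same values over all protein-coding genes. A gene without a listed peak is a gene without a call in that list, and the absence of the mark is not shown by it.

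Wnt ligands are lipid-modified secreted proteins that bind a Frizzled receptor together with Lrp5 or Lrp6. In the absence of a ligand, a complex built on Axin and Apc lets Gsk3b mark beta-catenin, the product of Ctnnb1, for degradation. When the receptors are engaged, beta-catenin enters the nucleus and works with the TCF/LEF proteins Tcf7, Tcf7l1, Tcf7l2 and Lef1. In mouse embryonic stem cells Wnt signalling is known to favour self-renewal, and Tcf7l1 is known as a repressor of pluripotency genes. H3K4me3 is a histone mark of gene starts, most of all those rich in CpG dinucleotides, and ATAC-seq finds DNA that is open to a transposase.

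The promoters that frame the results are shown first, 300 bases each, from RefSeq on GRCm38, the assembly that mm10 names. They are the promoter of the ligand with the most bases under H3K4me3 (Wnt3) and of the ligand with no peak (Wnt8b), of the receptor Fzd10, and of the effectors Gsk3b (the most bases) and Ctnnb1 (no peak at its most upstream start). Capitals mark CpG dinucleotides.
Wnt3 promoter, chr11:103773925-103774224, plus strand: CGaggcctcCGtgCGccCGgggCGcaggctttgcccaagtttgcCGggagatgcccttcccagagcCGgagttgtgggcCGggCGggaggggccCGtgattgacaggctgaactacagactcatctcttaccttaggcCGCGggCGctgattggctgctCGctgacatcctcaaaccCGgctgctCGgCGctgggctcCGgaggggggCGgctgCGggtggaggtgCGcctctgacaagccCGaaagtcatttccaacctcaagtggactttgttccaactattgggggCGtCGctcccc
Wnt8b promoter, chr19:44493222-44493521, plus strand: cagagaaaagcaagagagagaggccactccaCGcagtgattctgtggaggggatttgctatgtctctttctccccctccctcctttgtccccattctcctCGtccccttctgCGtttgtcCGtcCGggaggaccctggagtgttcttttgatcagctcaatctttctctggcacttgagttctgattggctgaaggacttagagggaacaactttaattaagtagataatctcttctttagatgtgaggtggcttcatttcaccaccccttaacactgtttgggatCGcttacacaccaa
Fzd10 promoter, chr5:128600856-128601155, plus strand: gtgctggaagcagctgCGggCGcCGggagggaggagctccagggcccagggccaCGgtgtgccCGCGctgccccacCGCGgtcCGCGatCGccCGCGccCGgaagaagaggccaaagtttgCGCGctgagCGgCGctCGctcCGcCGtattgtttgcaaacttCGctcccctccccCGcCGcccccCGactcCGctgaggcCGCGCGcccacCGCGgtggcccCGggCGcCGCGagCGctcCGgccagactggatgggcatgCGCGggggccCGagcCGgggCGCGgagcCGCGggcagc
Gsk3b promoter, chr16:38088751-38089050, plus strand: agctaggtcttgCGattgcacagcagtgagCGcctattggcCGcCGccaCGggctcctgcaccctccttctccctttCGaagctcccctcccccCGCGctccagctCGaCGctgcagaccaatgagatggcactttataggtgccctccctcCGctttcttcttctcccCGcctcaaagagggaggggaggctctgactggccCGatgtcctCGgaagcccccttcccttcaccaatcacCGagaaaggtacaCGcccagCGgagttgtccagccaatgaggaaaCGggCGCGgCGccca
Ctnnb1 promoter, chr9:120933150-120933449, plus strand: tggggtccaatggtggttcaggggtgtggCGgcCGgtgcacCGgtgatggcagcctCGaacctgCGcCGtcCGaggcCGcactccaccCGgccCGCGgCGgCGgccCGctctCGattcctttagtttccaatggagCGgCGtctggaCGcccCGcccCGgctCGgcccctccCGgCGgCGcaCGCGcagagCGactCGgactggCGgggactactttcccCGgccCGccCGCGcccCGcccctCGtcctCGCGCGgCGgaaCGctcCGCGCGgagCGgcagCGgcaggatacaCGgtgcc
The Wnt8b promoter held 6 CpG, against 24 for Wnt3, 45 for Fzd10, 21 for Gsk3b and 46 for Ctnnb1. The Wnt8b sequence was the only one of the 5 that lay under neither an H3K4me3 nor an ATAC peak. The Ctnnb1 sequence belongs to a RefSeq start 4184 bp downstream of the most upstream GENCODE start.

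Nearly every member carried both marks near its start. An H3K4me3 peak lay within 2 kb of the most upstream annotated start in 18 of 19 ligands, 12 of 12 receptors and 8 of 9 effectors, against 66.4% of all protein-coding genes. An ATAC peak lay there in 18 of 19 ligands, 12 of 12 receptors and 9 of 9 effectors, against 74.6% of all protein-coding genes. The ligand family, which includes genes known from limb, kidney and brain, was therefore not set apart from the effectors by the presence of a peak. H3K4me3 covered the start base itself in 38 members, and an ATAC peak covered it in 34. No peak was shared between members.

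**Figure D1:**
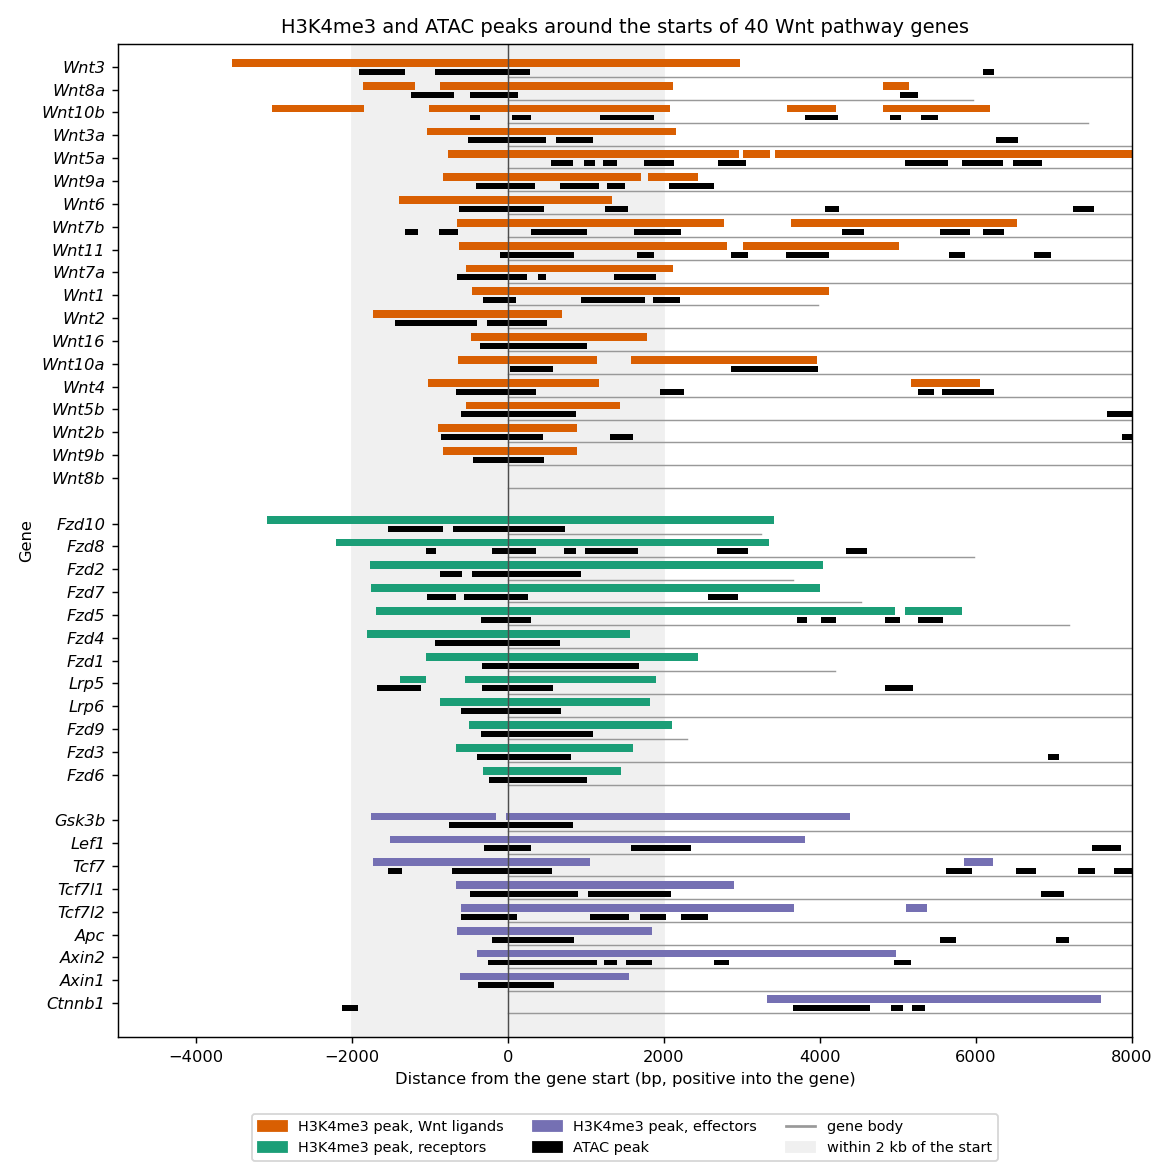
Peaks within 2 kb of each start and in each gene, by distance from the most upstream start in bp (horizontal axis) for the 40 genes (vertical axis, sorted within each class by bases under H3K4me3 within 2 kb). Coloured bars are H3K4me3 peaks, black bars ATAC peaks and thin grey lines the genes, all drawn to scale and ended at the axis limits. Wnt8b has no bar, and the H3K4me3 bar of Ctnnb1 begins 3318 bp inside the gene.

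The members without a peak at the start had one further inside the gene. Wnt8b, a ligand known from the forebrain, starts at chr19:44493472 on the plus strand. Its nearest H3K4me3 peak lay 17270 bp from the start and its nearest ATAC peak 5625 bp from it. Inside the gene, an H3K4me3 peak at chr19:44510742-44512479 had a fold enrichment over background of 17.8, was centred on a coding exon and lay 421 bp from a second annotated start of Wnt8b. Both ATAC peaks in the body of Wnt8b lay on that H3K4me3 peak.

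Ctnnb1 starts at chr9:120929216 on the plus strand, and its H3K4me3 peak at chr9:120932534-120936827 had a fold of 51.9 and a width of 4294 bp. This peak held 3 ATAC peaks, the widest of 984 bp, and covers the RefSeq promoter shown above. The single ATAC peak within 2 kb of the most upstream Ctnnb1 start was 205 bp wide and lay 1922 bp away from it, outside the gene. When any annotated transcript start was accepted, all 40 members had both an H3K4me3 and an ATAC peak within 2 kb.

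The classes differed in the strength of the mark more than in its presence. Fold enrichment is the height of a peak over its background as the peak caller gave it, and each gene is represented by its strongest H3K4me3 peak within 2 kb of the start. The ligands had folds of 8.60 to 36.8 with a median of 19.3 (n = 18), the receptors 24.3 to 41.8 with a median of 30.7 (n = 12), and the effectors 36.5 to 56.6 with a median of 49.1 (n = 8). Over all 14576 protein-coding genes with such a peak the median was 30.5. Above it were 2 of 18 ligands, 6 of 12 receptors and 8 of 8 effectors. In the percentile order of those genes, the median ligand stood at 23.4, the median receptor at 50.2 and the median effector at 90.4.

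**Figure D2:**
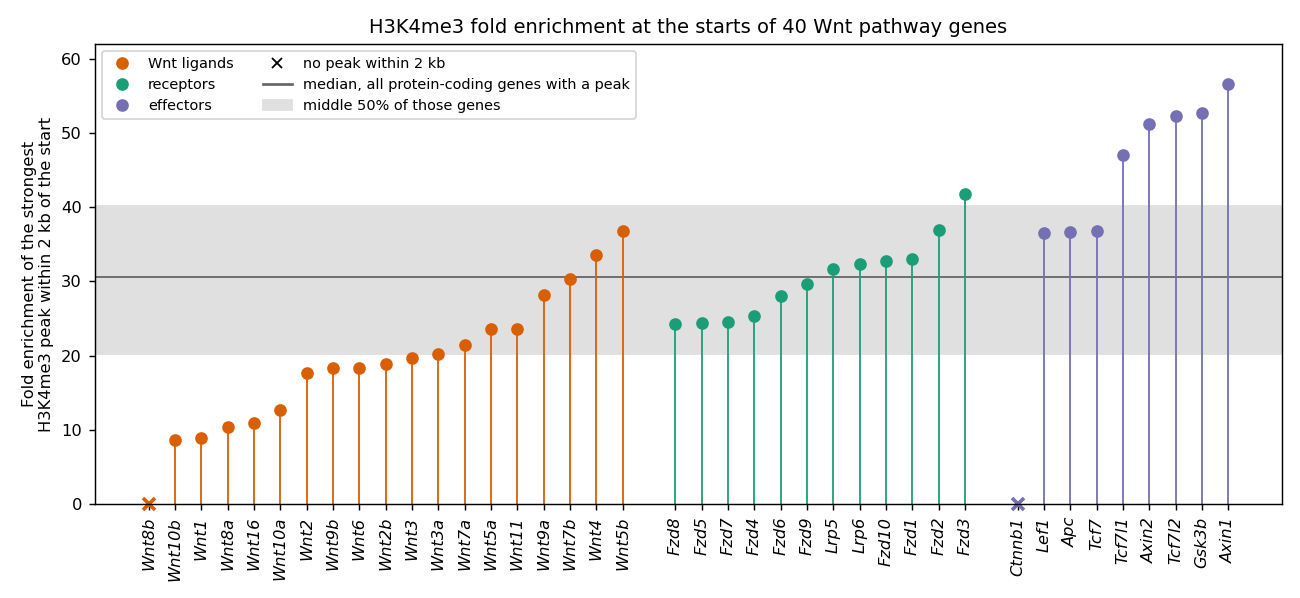
Fold enrichment (vertical axis) of the strongest H3K4me3 peak within 2 kb of the start of each gene (horizontal axis), 1 value per gene from the list that stands for both samples. The grey line and band give the median, 30.5, and the middle 50% of protein-coding genes with a peak, 20.2 to 40.1. Most ligands lie below the line, all 8 effectors with a peak lie above it, and crosses mark Wnt8b and Ctnnb1.

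The ranges overlapped, those of the ligands and the receptors from 24.3 to 36.8. Of 216 ligand and receptor pairs the ligand had the lower fold in 185, of 144 ligand and effector pairs in 142, and of 96 receptor and effector pairs the receptor was lower in 90. Below every receptor lay 14 of 18 ligands, and below every effector lay 17 of 18 ligands and 10 of 12 receptors. In the other direction, 2 of 12 receptors and 6 of 8 effectors lay above every ligand, and 5 of 8 effectors above every receptor. The caller's −log10 q values kept the same order, with medians of 190 for the ligands, 444 for the receptors and 738 for the effectors.

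Among the ligands, the lowest folds belonged to Wnt10b (8.60), known from bone and fat cell formation, and Wnt1 (8.88), known from the midbrain. Wnt8a (10.4), Wnt16 (10.9) and Wnt10a (12.7) followed. These 5 were set apart from the other ligands, whose lowest fold was 17.6 for Wnt2. From there the order ran without a wide gap through Wnt9b (18.3), Wnt6 (18.4), Wnt2b (18.9), Wnt3 (19.7), Wnt3a (20.2) and Wnt7a (21.4) to Wnt5a (23.6) and Wnt11 (23.7). The highest were Wnt9a (28.1), Wnt7b (30.4), Wnt4 (33.6), known from kidney and the female reproductive tract, and Wnt5b (36.8).

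The low folds were not narrow peaks. The Wnt1 peak at chr15:98789392-98793972 was 4581 bp wide, ran past the end of a gene of 3.98 kb, and had its summit 2886 bp downstream of the start. The Wnt10b peak was 3089 bp wide and was joined within the window by an upstream peak with a fold of 3.95. At Wnt10a the peak over the start (fold 12.5) and a peak further into the gene (fold 12.7) were nearly equal, so that its strongest peak had a summit 3084 bp from the start.

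The order of the ligands by bases under H3K4me3 in the 4001-bp window was another one. Wnt3, required for gastrulation in the mouse, was covered in full by a peak of 6518 bp at chr11:103770610-103777127. Wnt8a followed with 3544 covered bases and Wnt10b with 3166. The median ligand had 2541 covered bases, and Wnt9b, known from kidney induction, had the least of those with a peak, 1723.

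The receptors held a narrow range of folds, from Fzd8 (24.3), Fzd5 (24.4), Fzd7 (24.6) and Fzd4 (25.4) through Fzd6 (28.0), Fzd9 (29.7), Lrp5 (31.7), Lrp6 (32.3), Fzd10 (32.7) and Fzd1 (33.1) to Fzd2 (37.0) and Fzd3 (41.8). The co-receptors lay next to each other in this order. Frizzled genes differed more in width. Peaks wider than 5 kb lay over Fzd5 (6661 bp), Fzd10 (6494 bp), Fzd2 (5817 bp), Fzd7 (5759 bp) and Fzd8 (5557 bp), all short genes of 3.25 to 7.19 kb. The peaks of Fzd2 and Fzd10 ran from upstream of the start to past the end of the gene. The most bases under H3K4me3 within 2 kb were those of Fzd8 and Fzd10, with all 4001, and of Fzd2, with 3775.

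At Fzd4, a receptor needed for retinal blood vessels, the start of Tmem135 lay 133 bp away under the same H3K4me3 peak, and the share of each gene in that peak cannot be told apart. No other member had the start of a further protein-coding gene under its strongest start peak.

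The effectors had the strongest marking. Axin1, the scaffold of the degradation complex, had the highest fold of all 40 genes, 56.6, and the highest −log10 q, 1072, in a peak of only 2166 bp at chr17:26138073-26140238. Gsk3b (52.6), Tcf7l2 (52.2), Axin2 (51.2) and Tcf7l1 (47.1) followed. A lower group held Tcf7 (36.8), Apc (36.6) and Lef1 (36.5), whose folds were still above those of all ligands but Wnt5b and, for Tcf7, just above it.

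Within the TCF/LEF family, Tcf7l1 and Tcf7l2 thus had higher folds than Tcf7 and Lef1. Lef1 in turn had one of the widest peaks, 5326 bp, with a summit 1716 bp into the gene. Axin2, a feedback inhibitor that is a known target of the pathway, had the widest effector peak, 5375 bp at chr11:108919950-108925324. Axin1 had a higher fold at a smaller width. The most covered bases within 2 kb were those of Gsk3b (3640, under 2 peaks), Lef1 (3515) and Tcf7 (2793).

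Start peaks were wide in all classes. The median width of the strongest peak was 2693 bp for the ligands, 3433.5 bp for the receptors and 3924 bp for the effectors, against 2158 bp for all protein-coding genes with a peak. Wider than that median were 15 of 18 ligands, 11 of 12 receptors and 8 of 8 effectors. Some effectors were high in both, as Axin2 (fold 51.2, 5375 bp), Gsk3b (52.6, 4420 bp) and Tcf7l2 (52.2, 4277 bp) were. Elsewhere the values parted. Wnt3 and Fzd5 had the widest peaks at folds below the genome-wide median, and Axin1 had the highest fold at a width of 2166 bp.

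**Figure D3:**
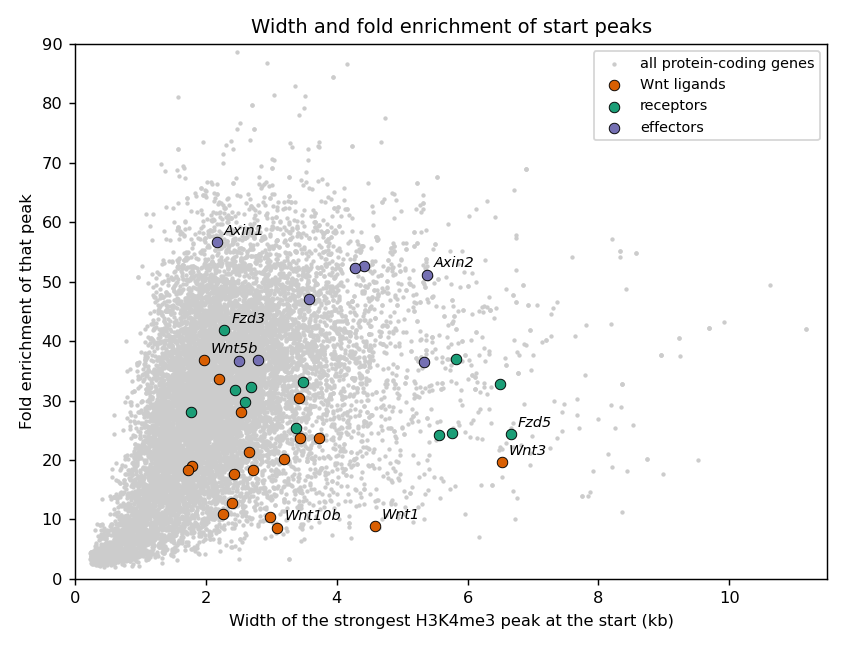
Width in kb (horizontal axis) and fold enrichment (vertical axis) of the strongest H3K4me3 start peak of each member, coloured by class, over all 14576 protein-coding genes with a peak in grey. The ligands lie low across the whole range of widths, and the receptors Fzd5 and Fzd10 and the ligand Wnt3 lie at the right at 6494 to 6661 bp.

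CpG content was read from the genome within 500 bp of each start. The median count in this 1001-base window was 61 CpG for the ligands, 97 for the receptors and 88 for the effectors, against 41 for all protein-coding genes and 60 for those with an H3K4me3 peak. The lowest members were Ctnnb1 (18), Wnt8a (19), Wnt8b (21) and Wnt16 (27). Of these, Ctnnb1 and Wnt8b had no H3K4me3 start peak, and Wnt8a and Wnt16 had one. The Ctnnb1 count is that of its most upstream start. Its RefSeq promoter, 4184 bp downstream and under an H3K4me3 peak, held 46 CpG in 300 bases. The highest were Lrp6 (149) and Wnt4 (137).

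Genes of different classes with like CpG counts could have unlike folds. Ligands such as Wnt2b (96 CpG, fold 18.9) and Wnt7a (95 CpG, fold 21.4) had as many CpG as the effector Tcf7l1 (95 CpG, fold 47.1). Tcf7l2 had 59 CpG with a fold of 52.2, close to the 60 CpG of Wnt10b with a fold of 8.60. Across the 38 members with a peak the Spearman correlation of CpG count and fold was 0.49, and across 14563 protein-coding genes it was 0.55. Within the classes it was 0.61 for the ligands (n = 18), 0.26 for the receptors (n = 12) and 0.07 for the effectors (n = 8). These are descriptions across genes, whose values come from the same pooled list.

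**Figure D4:**
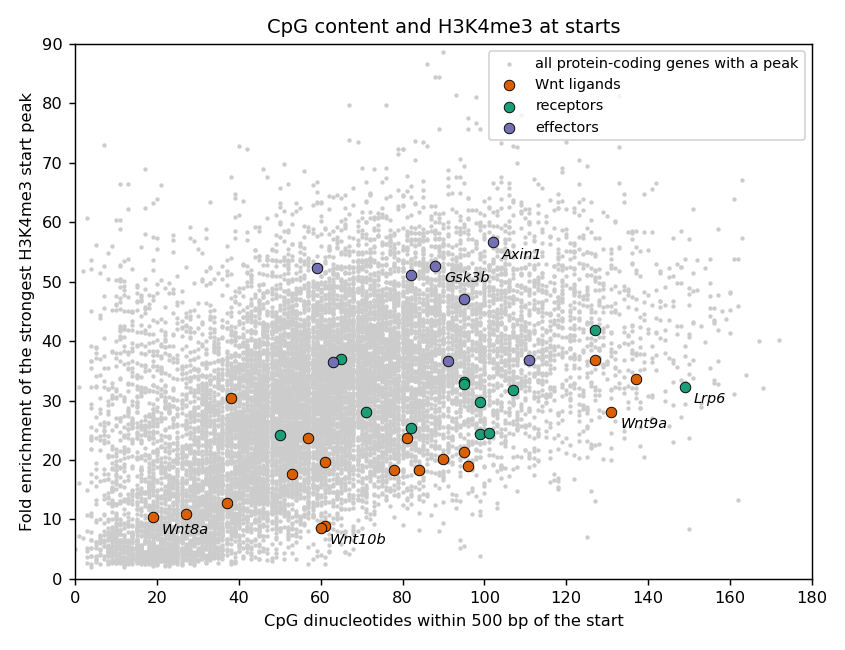
CpG dinucleotides within 500 bp of the start (horizontal axis) and fold enrichment of the strongest H3K4me3 start peak (vertical axis) for the 38 members with a peak, coloured by class, over all protein-coding genes with a peak in grey. Near 95 CpG, Tcf7l1 lies above Fzd1 and Fzd10, and these lie above Wnt7a and Wnt2b.

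RefSeq promoters of 300 bases were matched for 28 members (70%). The remaining 12 were Wnt5a, Wnt7b, Wnt8a, Wnt10a, Fzd2, Fzd3, Fzd6, Fzd8, Lrp5, Lrp6, Axin1 and Apc. With fewer than 80% matched, a comparison of motif shares for the set is void, and nothing is read from the share that follows. The TCF/LEF core CTTTGAT, searched on both strands, was found in the promoter of Wnt11 alone of the 28; it was in 3.16% of all 16538 promoters. No match says only that these letters were not in this window.

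The ligands more often had several ATAC peaks at the start. More than 1 ATAC peak lay within 2 kb of the start in 14 of 18 ligands, 5 of 12 receptors and 5 of 9 effectors, and over all protein-coding genes with an ATAC peak 6091 had more than 1 and 10275 had 1. The widest start peak had a median width of 930.5 bp in the ligands, 1275 bp in the receptors and 1052 bp in the effectors. A single start peak was found in 7 of 12 receptors, a share not above that of all protein-coding genes, and in 4 of 18 ligands. The broadest start peak of any member, 2020 bp, was at Fzd1.

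Wnt5a, known for limb outgrowth and for signalling without beta-catenin, was the clearest case of a split start. It had 4 ATAC peaks of 275, 145, 175 and 386 bp within 2 kb, none over the start base, under an H3K4me3 peak of 3735 bp. Wnt7b and Fzd8 also had 4 ATAC peaks each. The start base was not under an ATAC peak in 6 members, namely Wnt5a, Wnt7b, Wnt8b, Wnt10a, Wnt10b and Ctnnb1. At Wnt10a the nearest ATAC peak began 21 bp away and at Wnt10b 50 bp away.

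Beyond 2 kb of the start, H3K4me3 peaks were frequent in ligand genes. At least 1 was found in 14 of 19 ligands (27 peaks), 2 of 12 receptors (2 peaks) and 6 of 9 effectors (12 peaks), against 27.1% of all protein-coding genes. The ligand count stood above this share and the receptor count below it, while median gene length was 22.2 kb for ligands, 6.58 kb for receptors and 102 kb for effectors. A peak that touched the start window was not counted here, even where it ran on into the gene. The start peaks of Fzd2, Fzd5, Fzd7, Fzd8 and Fzd10 reached 3352 to 4970 bp past the start. Those of Wnt1 (4115 bp) and Axin2 (4975 bp) also did so. The low receptor count is therefore no lack of H3K4me3 beyond 2 kb. An ATAC peak lay on 36 of the 41 peaks, and 12 lay within 2 kb of another annotated start of the same gene. The centres of 13 of 27 ligand peaks were in coding exons, against 1 of 12 effector peaks. The share of coding exon in these genes was not measured, so no class difference is read from this.

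Some of these body peaks were as strong as a promoter. Wnt6, which shares a cluster with Wnt10a, had a peak of 2947 bp with a fold of 25.5 at chr1:74781925-74784871 over another of its own starts, above the 18.4 of its most upstream start. Other starts of the same gene also lay under body peaks of Wnt5a (4749 bp, fold 18.2), Wnt7b (2896 bp, fold 16.7), Wnt11 (1995 bp, fold 13.1), Wnt5b (1082 bp, fold 8.23), Apc (1516 bp, fold 12.8) and Tcf7l2 (1338 bp, fold 3.80). The strongest body peak in any member was that of Ctnnb1, described above. The strongest in a ligand, 5020 bp with a fold of 43.8 inside Wnt5b, lay over the start of Fbxl14, a gene nested in Wnt5b. The nearest annotated start of Wnt5b was 11354 bp from that peak, and the share of each gene in it was not measured.

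A pair of strong body peaks lay far from any annotated start of their gene. Unlike the one in Wnt5b, they had no start of another gene within 2 kb. Wnt3 had a peak of 1995 bp with a fold of 16.2 in an intron at chr11:103808813-103810807, 35.7 kb from the start, and Wnt3a, known from somite formation, had one of 1101 bp with a fold of 18.5 in an intron at chr11:59263729-59264829, 26.5 kb from the start. The Wnt3a peak was nearly as high as the peak at its start (20.2). Each held at least 1 ATAC peak.

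In the remaining ligands the body peaks had lower folds than this pair, though not always lower than at their own start. Wnt10a had peaks with folds of 6.94 and 11.7, Wnt10b 5.25 and 8.79, Wnt4 3.24, Wnt8a 2.95, Wnt9a 4.91 and Wnt9b 3.73. The 8.79 of Wnt10b was above the 8.60 of its start peak. The 11.7 of Wnt10a was close to its start peaks (12.5 and 12.7). These body peaks lay 3684 bp (Wnt10b) and 9409 bp (Wnt10a) from the nearest annotated start of their gene. Among the receptors the body peaks were those of Fzd5 (3.41) and Lrp6 (2.57). Among the effectors, apart from Apc and the Ctnnb1 peak described above, they were those of Lef1 (3.39), Tcf7 (3.38), Tcf7l1 (4 peaks, 2.95 to 7.21) and Tcf7l2 (4 peaks, 3.59 to 4.98). Apart from those of Apc and Ctnnb1, no effector or receptor body peak reached the 8.60 of the start peak of Wnt10b.

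ATAC peaks were abundant in the bodies of the effectors. At least 1 was found in 17 of 19 ligands (81 peaks), 7 of 12 receptors (34 peaks) and 9 of 9 effectors (144 peaks), against 61.6% of all protein-coding genes. Per 100 kb of gene this was 15.0 peaks for the ligands, 9.33 for the receptors and 16.4 for the effectors, and 7.29 for all protein-coding genes. The whole gene length was used, with the first 2 kb in which no peak was counted. This lowers the value most for short genes, as many receptors are. Introns held 216 of the 259 peaks, and 66 of the 259 lay on an H3K4me3 peak. Within 2 kb of another annotated start of the same gene lay 24 of 81 ligand, 2 of 34 receptor and 13 of 144 effector peaks. A start of another gene lay within 2 kb of 23 of the 259.

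The genes with most of them were the TCF/LEF genes Tcf7l1 (41) and Lef1 (30) and the kinase gene Gsk3b (18) among the effectors, Wnt5b (22), Wnt7b (11) and Wnt5a (7) among the ligands, and Lrp5 (12), Lrp6 (10) and Fzd5 (4) among the receptors. Lengths differ, and per 10 kb Fzd5 (5.56), Wnt10b (4.03), Fzd8 (3.35) and Wnt5a (3.08) led. Among the effectors Axin2 had 2.96, Tcf7 2.94, Lef1 2.63 and Tcf7l1 2.52 per 10 kb, above 96.9%, 96.8%, 95.3% and 94.6% of protein-coding genes. The lowest effectors were Axin1, with 0.35, and Tcf7l2, with 0.78. No such peak was found in Fzd1, Fzd2, Fzd4, Fzd9, Fzd10, Wnt1 and Wnt2. Of these, Fzd1, Fzd2, Fzd9, Fzd10 and Wnt1 are genes of 2.29 to 4.20 kb, with little length beyond 2 kb of the start.

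**Figure D5:**
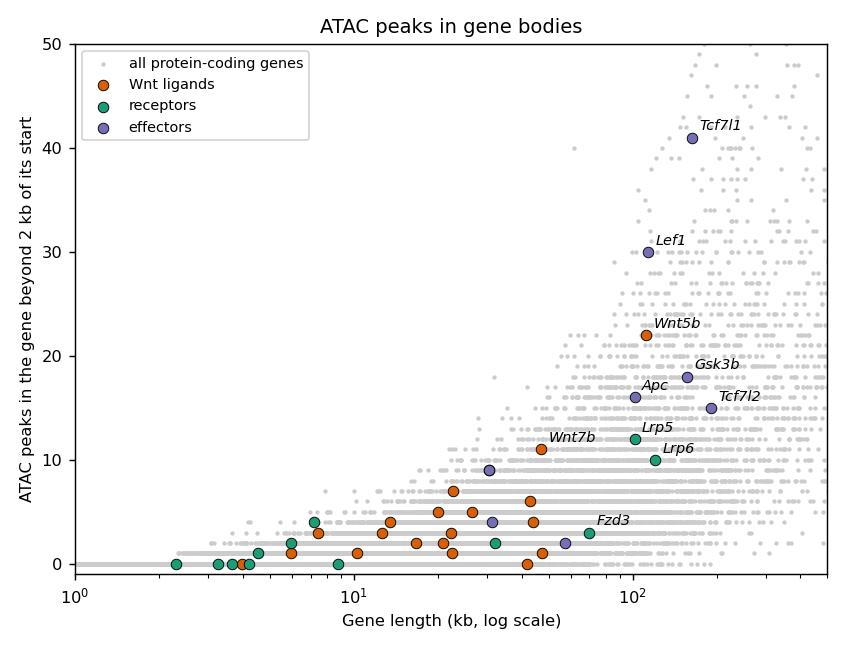
Gene length in kb on a log scale (horizontal axis) and the number of ATAC peaks in the gene beyond 2 kb of its start (vertical axis) for the 40 members, coloured by class, over protein-coding genes in grey. Outside the axes lie 953 genes. Tcf7l1 and Lef1 lie high among genes of their length, with 41 and 30 peaks, and Axin1 has 2.

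The sequences of ATAC peaks were searched for the TCF/LEF core in a 300-base window on each peak centre. The core was in 2 of 75 member start peaks (2.67%) and 14 of 259 member body peaks (5.41%), against 4.53% of 178722 ATAC peaks over all chromosomes searched. Of these, ATAC peaks on an H3K4me3 peak held the core in 3.02% of cases and those off H3K4me3 in 4.94%. Body peaks of effectors held it in 10 of 144 cases, those of ligands in 4 of 81 and those of receptors in 0 of 34. Lef1 alone had 4 of them, Tcf7l1 had 2, and no window had more than 1 match. In the start peaks of members the GC box GGGCGG, searched on both strands, was in 64% of windows, against 45.9% of all ATAC peaks that lay on an H3K4me3 peak. These sets are unlike. The latter was not limited to gene starts, and some member start peaks, as at Wnt2b and Wnt4, lay off H3K4me3. No excess is read from the difference.

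Of the 16 windows with the core, 5 in Axin2, Lef1 and Tcf7 are shown as examples, a known feedback target of the pathway and members of the family that binds the motif. They were chosen after their values were seen. Each line gives the match in capitals with up to 30 bases on either side.
Axin2, chr11:108923042-108923108, plus strand: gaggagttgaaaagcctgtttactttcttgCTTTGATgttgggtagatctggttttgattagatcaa
Lef1, chr3:131132882-131132948, plus strand: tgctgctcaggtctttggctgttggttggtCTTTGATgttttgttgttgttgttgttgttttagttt
Lef1, chr3:131155792-131155858, plus strand: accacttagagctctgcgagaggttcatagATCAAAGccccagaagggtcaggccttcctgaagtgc
Lef1, chr3:131190830-131190896, plus strand: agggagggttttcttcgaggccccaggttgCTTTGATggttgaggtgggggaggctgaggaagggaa
Tcf7, chr11:52284429-52284495, plus strand: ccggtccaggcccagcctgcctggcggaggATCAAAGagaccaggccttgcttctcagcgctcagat
The Axin2 match lay in an ATAC peak of 200 bp, 2.74 kb from the start and within the broad H3K4me3 peak of the gene. The Lef1 matches were intronic, in ATAC peaks of 498, 192 and 1240 bp without H3K4me3, and the match of the other Lef1 window, not shown, lay outside its peak. The Tcf7 match lay 1.45 kb upstream of the start in a peak of 184 bp under H3K4me3. A match is a stretch of letters, and no binding was measured here.

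Several ligands lie next to each other, and their shared intervals differed in marking. Wnt6 and Wnt10a lie on the same strand of chromosome 1, 19.6 kb apart from start to start. Between the starts were 4 H3K4me3 and 7 ATAC peaks, and 28.2% of the interval lay under H3K4me3. That interval includes the whole Wnt6 gene, while those of the pairs that follow lie between divergent starts. Wnt10b and Wnt1 point away from each other on chromosome 15 at 11.7 kb, with 3 H3K4me3 and 5 ATAC peaks and 22.7% covered. Wnt9b and Wnt3 do so on chromosome 11 at 24.3 kb, with 2 and 8 peaks and 4377 bp covered, as do Wnt3a and Wnt9a at 16.2 kb, with 2 and 5 peaks and 1878 bp covered. In each pair with divergent starts the folds at the starts were close for Wnt10b and Wnt1 (8.60 and 8.88) and for Wnt9b and Wnt3 (18.3 and 19.7), and further apart for Wnt3a and Wnt9a (20.2 and 28.1).

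A further 51 genes of the pathway were read in the same way. An H3K4me3 peak lay within 2 kb of the start in 50 of them and an ATAC peak in 51. Extracellular regulators, the Dkk, Sfrp and R-spondin genes and their like, had a median fold of 16.7 (n = 15), and 1 of them, Notum (34.5), a secreted enzyme that removes the lipid of Wnt proteins, was above the protein-coding median. Intracellular components had a median fold of 35.5, with 17 of 23 above that median. Among the 17 was Apc2 (32.7), whose strongest peak covered the start of Rps15 and had its summit 3156 bp upstream of Apc2. The share of each gene in that peak cannot be told apart. At Tle2 (21.6) the strongest peak also had a distant summit, 3088 bp upstream. Secretion factors and further receptors had a median fold of 26.4 (n = 7) and R-spondin receptors with their ubiquitin ligases 29.6 (n = 5). The extracellular regulators thus also had a lower median fold than the intracellular components. Their ranges overlapped widely, 2.80 to 34.5 and 8.00 to 66.1.

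Dkk4, a secreted inhibitor, was the one gene without an H3K4me3 peak at its start. Sost, another secreted inhibitor, had only a peak of 251 bp with a fold of 2.80. The most covered bases within 2 kb were those of the co-repressor genes Tle1 (4001) and Tle3 (3714) and of Sfrp2 (3606), a secreted Wnt binder.

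Of 10 embryonic stem cell markers, 9 had an H3K4me3 peak within 2 kb of the start (all but Esrrb, which had 12 in its body) and 10 an ATAC peak, with H3K4me3 folds of 9.74 to 45.2 and a median of 31.0. Of 10 markers of fibroblasts, the feeder cells, 6 had an H3K4me3 peak there, with folds of 3.39 to 20.4 and a median of 15.4. An ATAC peak was found in 8, and Col3a1, Lum, Postn and Fap had no H3K4me3 peak there. Over all protein-coding genes the shares were 66.4% for H3K4me3 and 74.6% for ATAC, near the 60% and 80% of the fibroblast markers. The median fold of the ligands, 19.3, lay in the range of both marker lists, and the part of feeder cells in any peak was not tested.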

How the data were processed

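The 40 members, the 51 further pathway genes and the markers were chosen with earlier results of these data known. H3K4me3 ChIP-seq and ATAC-seq each had 2 samples. Per the study's methods, ATAC reads were mapped to mm10 with Bowtie 1.1.2, duplicates and mitochondrial reads were removed, read ends were shifted to the transposase cut, and MACS2 2.1.1.20160309 called peaks per sample and on the pool. Pooled peaks found in both samples were kept (bedtools 2.27.1). The deposited ATAC list holds positions only. The H3K4me3 list came from the ENCODE histone pipeline, on mm10, with its aligner and threshold not given in the sources used here. In it the authors deposited a fold enrichment (a ratio of signal over background) and a −log10 q-value for each peak.

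Peaks were joined to GENCODE M21 protein-coding genes with Python 3.11.15 and pandas 2.3.3. A peak was at a start if it shared at least 1 bp with the 2 kb on either side of the gene's most upstream annotated start, and in the body if it overlapped the gene but not that window. The strongest start peak is the one with the highest fold. The overlap code was tested on simulated peaks and against bedtools 2.31.1. With 1 list per assay there was no replicate to test over. Every member is named. Described in full, per class, were the 3 with most bases under H3K4me3 at the start, those without a peak, the 3 with most ATAC peaks in the body, and those with an H3K4me3 peak in the body. Of the further pathway genes these were the 3 with most bases and those without a peak. Promoters are those of RefSeq on GRCm38.p6. CpG counts come from the genome. The ATAC peaks and motif windows shown are a choice from the 16 member peaks with a match, made after their values were seen.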

Additional observations from a re-analysis of the deposited data

How the results depend on the processing

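Counts and medians were recomputed with windows of 1 kb and 5 kb, any annotated start, stricter H3K4me3 peaks (−log10 q of at least 5, or at or above the median of 56.4), the widest 50% of ATAC peaks, peak midpoints, and body peaks away from every annotated start. Of 107 values 102 stayed within 1.5 times the count or 10% of the median fold. Receptors with an H3K4me3 peak in the body fell from 2 to 1 at a −log10 q of at least 5 and to 0 at or above the median. Effectors with one fell from 6 to 2 at or above the median and to 3 away from annotated starts. By peak midpoint the effectors' median fold was 36.8 in place of 49.1, since wide peaks then count only where their centre lies in the window. The order of the 3 medians was ligands, receptors, effectors under each of these settings that gives a fold, with the effectors at 36.8 to 51.2. No paired analysis was possible because each list stands for both replicates, and leaving out a replicate was not run for the same reason. Without read counts, depth and counting error are unknown, and a fold from a peak caller depends on both.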
